A study of Mus musculus with 22 samples.

Results

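The scaffold genes of the postsynaptic density comprised 10 genes, Homer1, Homer2, Homer3, Shank1, Shank2, Shank3, Dlg2, Dlg3, Dlg4 and Dlgap1, taken by name from a count table of 24061 genes. They were measured in 22 RNA-seq libraries of the nucleus accumbens, the ventral part of the striatum that takes part in reward, from male C57BL/6J mice aged 7 to 9 weeks. Mice given antibiotics and morphine had 5 libraries, mice given antibiotics and saline 6, mice given water and morphine 5, and mice given water and saline 6. The antibiotics do not cross the gut wall and deplete the gut microbiome, while water mice kept a normal microbiome. Morphine was given at 20 mg/kg per day for 7 days, and saline was its vehicle. All mice were conventionally raised, and the labels name no engineered allele. The titles number the samples without saying whether animals were pooled, so the p-values below measure only how these samples vary.

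The postsynaptic density is the protein lattice under the membrane of excitatory synapses. Dlg proteins lie next to the membrane and hold glutamate receptors and adhesion proteins through their PDZ domains. Dlgap proteins join them to the Shank proteins, large platforms of the deeper layer, and Homer proteins tie Shank to metabotropic glutamate receptors and to the calcium release channels of the endoplasmic reticulum. In the striatum most excitatory synapses sit on the spines of the projection neurons, and Shank3 is known as the main Shank of those neurons.

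Each gene is given in CPM, its count scaled to the library total in genes and by TMM (trimmed mean of M values). Total counts per library lay between 11789713 and 19755139, and counts assigned to genes between 9357299 and 15330947. All 10 scaffold genes passed the filter on low counts, which kept 14564 genes. Homer3 was the sparsest, with 55 to 99 counts per library, and Dlg4 the richest, with 8154 to 13159. Markers of striatal projection neurons (12 of 12 passed the filter) summed to between 3373.68 and 7860.28 CPM, so the tissue label was borne by its defining genes. Markers of cortical and septal neurons, the neighbouring tissue, also passed (15 of 15) and summed to between 281.135 and 1780.68 CPM, with Neurod2 and Neurod6 at 0 in 1 library each. Library 5 of the antibiotic-saline group and library 4 of the water-morphine group stood apart, with projection neuron marker scores (mean z-score of log2 CPM) of -2.68 and -1.60 and cortical and septal scores of 1.10 and 0.864. Scaffold gene changes, SDs and correlations that these libraries move most are also given without them.

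The upstream sequences of a pair of scaffold genes are shown because their levels moved in opposite directions between libraries, as described further on. Shank3 lies on chromosome 15 and Homer2 on chromosome 7. Sequences are from RefSeq on GRCm38.p6 and cover the 250 bases before an annotated start, chr15:89499358-89499607 on the plus strand for Shank3 and chr7:81706926-81707175 on the minus strand for Homer2, 5′ to 3′. Capitals mark matches, on either strand, to the GC box GGGCGG or to the Egr motif GCGNGGGCG, which can overlap each other.
Shank3: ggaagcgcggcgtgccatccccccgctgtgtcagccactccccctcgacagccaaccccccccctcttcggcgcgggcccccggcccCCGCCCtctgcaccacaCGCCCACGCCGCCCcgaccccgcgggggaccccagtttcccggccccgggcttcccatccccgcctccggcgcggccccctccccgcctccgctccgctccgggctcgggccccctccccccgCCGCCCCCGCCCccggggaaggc
Homer2: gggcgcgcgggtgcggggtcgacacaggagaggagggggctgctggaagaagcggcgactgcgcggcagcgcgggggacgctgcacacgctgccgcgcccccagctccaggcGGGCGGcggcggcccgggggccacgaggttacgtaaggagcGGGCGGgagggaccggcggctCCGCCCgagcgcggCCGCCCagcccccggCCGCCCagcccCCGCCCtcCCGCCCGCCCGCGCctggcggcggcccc
Shank3 held 4 GC boxes and 2 Egr matches in these bases, and Homer2 held 8 and 1. Windows of 300 bases, 250 before and 50 after a start, were on hand for 8 of the 10 genes (16 windows). The GC box occurred in 5 of those 16 windows and in 35.7% of 32851 windows genome-wide, and the Egr motif in 3 of 16 and in 5.55%. The cAMP response element TGACGTCA and the AP-1 motif TGANTCA matched none of the 16 windows, against 1.79% and 7.81% genome-wide. The E-box CACGTG matched 1 window (7.15% genome-wide), one of Dlgap1, and the TATA motif TATAAA matched 2 (13.6%), one of Homer2 and one of Dlg2. Both of the sequences shown held both the GC box and the Egr motif. The other Homer2 window, not shown, held 0 of each and was the one with the TATA motif.

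Levels were ranked between genes only per kilobase of the longest coding transcript. Dlg4, which encodes PSD-95, the most studied Dlg scaffold of excitatory synapses, was the most abundant at 148 ± 15.4 CPM per kilobase (SD, n = 22 libraries) and exceeded Dlg2, the next, 2.45-fold, with no overlap of their ranges. Dlg2 (60.1 ± 4.08), Shank3 (54.4 ± 8.21) and Dlg3 (51.9 ± 3.31), per kilobase, formed a middle tier whose neighbours overlapped. Dlg2 was above Shank3 in 18 of 22 libraries, and Shank3 above Dlg3 in 14 of 22. Dlgap1 followed at 32 ± 11.1 CPM per kilobase, above Homer1 (22.8 ± 3.22) in 18 of 22 libraries, and Homer1 was above Shank1 (20 ± 5.26) in 17. Shank2 averaged 15.1 ± 1.78 CPM per kilobase, below Shank1 in 22 of 22 libraries although the ranges over libraries overlapped. Homer2 (2.58 ± 1.14) and Homer3 (2.38 ± 0.212) closed the order, 5.86-fold below Shank2 in the case of Homer2, and Homer2 was above Homer3 in only 9 of 22 libraries. Before division by length Homer2 averaged 28.28 CPM and Homer3 6.215 CPM. The place of Homer2 rests on a length of 10982 bases, the longest of its 4 coding transcripts. Which of them was expressed was not tested. Homer1 was the leading Homer in CPM per kilobase in every library, with a ratio to Homer2 between 3.32 and 20.4. Shank3 was above Shank1 in every library, by a ratio between 1.26 and 4.41. The lowest ratios of both kinds belonged to the 2 libraries that stood apart, at 3.32 and 4.11 for Homer1 over Homer2 and 1.26 and 1.5 for Shank3 over Shank1. Gene counts do not tell the short, activity-induced form of Homer1, which lacks the coiled coil, from the long forms. Homer3 shares 874 bases of exon with Ddx49 and Shank1 339 with 1700008O03Rik on the other strand, and the sources used here do not say whether counting used strand, so reads of these partners could not be told apart.

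**Figure D1:**
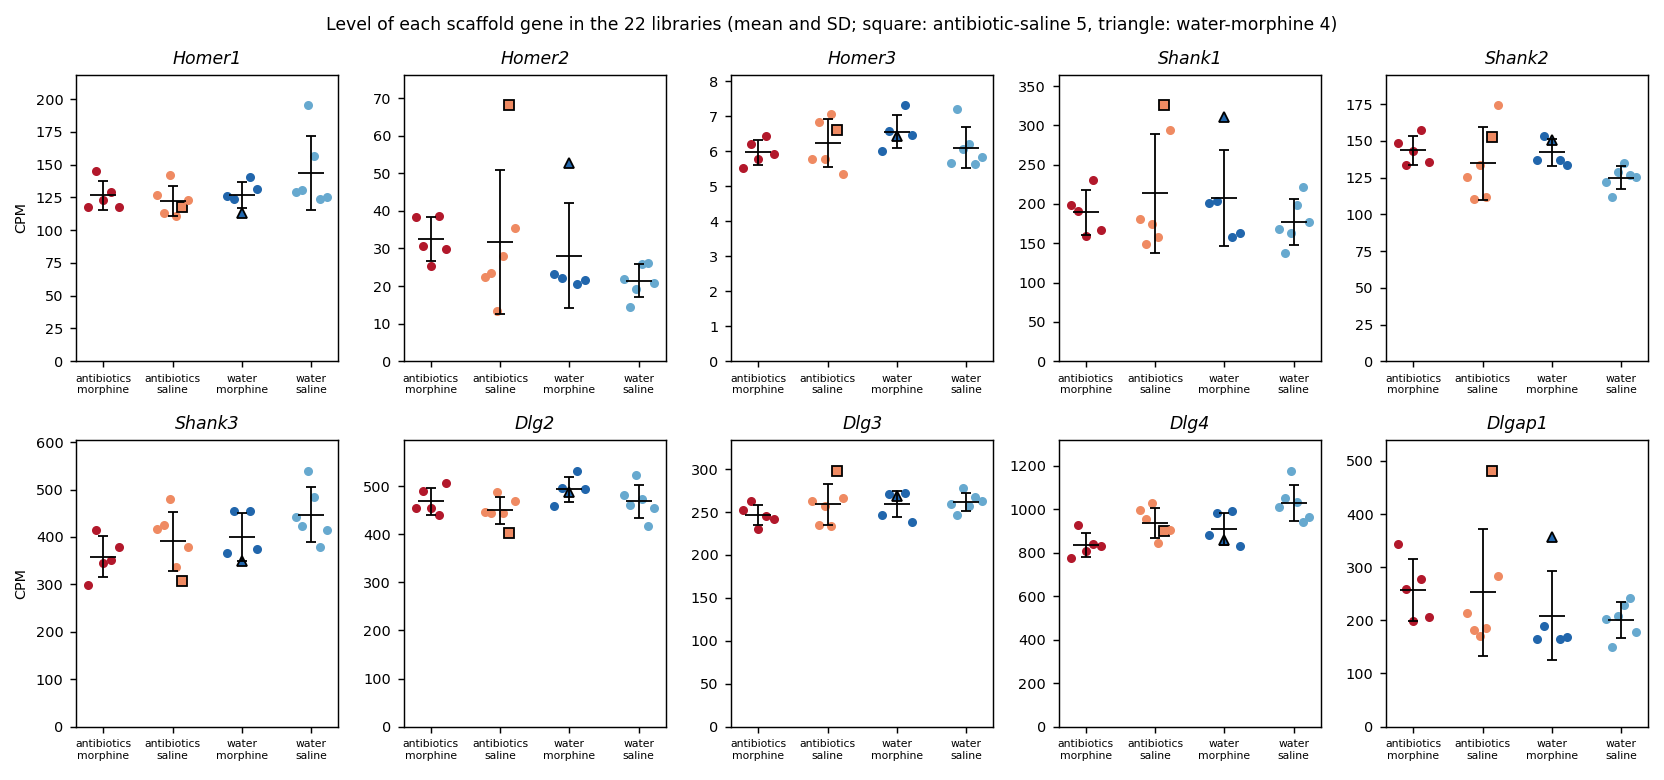
CPM of each scaffold gene in every library (points), by group, with the group mean and SD (bars), n = 5 or 6 libraries. Groups overlap for every gene, and antibiotic-saline library 5 (square) and water-morphine library 4 (triangle) are far above the rest of their own groups for Dlgap1, at 481.9 and 356.2 CPM.

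None of the 10 scaffold genes passed an adjusted p of 0.05 in any of 5 comparisons (edgeR quasi-likelihood test, two-sided, Benjamini-Hochberg over 14564 genes), and in all 4 pairwise comparisons the groups overlapped for all 10. DESeq2 and limma-voom also called 0 of 10 each time. The comparisons share groups of libraries, so their results are not independent of each other.

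The first comparison asked what morphine does in mice with a depleted microbiome. Dlg4 came closest to the threshold. It had 777, 926.8, 808.8, 838.5 and 832.8 CPM in the 5 antibiotic-morphine libraries, against 846.2 at the lowest, 928.8 at the median and 1030 at the highest in the 6 antibiotic-saline libraries. All 5 morphine libraries lay below the saline mean, but library 2 lay inside the saline range. The log2 change was -0.16 ± 0.064 (SE; edgeR adjusted p = 0.0935). Without antibiotic-morphine library 2 it was -0.21 with an adjusted p of 0.0399, and over the leave-one-out fits the adjusted p ranged from 0.0399 to 0.222. Called were 0 of 10 scaffold genes, where 13.0% of all genes passed (6.43% higher and 6.62% lower). Before adjustment 1 of 10, Dlg4, had a p under 0.05. So did 1974 genes with a rise and 2047 with a fall among all 14564, so that count does not set the scaffold genes apart. The 10 changes had a median of -0.018 and ran from -0.17 for Shank1 to 0.092 for Shank2, while the median of all genes was -0.0024.

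The other Dlg genes had narrow intervals. Dlg2, a close relative of Dlg4 that also binds NMDA receptors, averaged 469.4 ± 28 CPM with antibiotics and morphine and 449.9 ± 28.5 CPM with antibiotics and saline (SD, n = 5 and 6), a log2 change whose 95% interval was -0.055 to 0.18. Dlg3, the Dlg scaffold prominent in young synapses, averaged 246.5 ± 12.2 CPM and 258.9 ± 23.8 CPM in the same order, with an interval from -0.19 to 0.045. Intervals were widest for Homer2, from -0.64 to 0.72, and Dlgap1, from -0.53 to 0.58, so a change of up to about that size in either gene was not detectable here.

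Morphine in mice with a normal microbiome gave a similar picture, with Dlg4 and Shank2 nearest to the threshold. Dlg4 had 882.4, 984.3, 857.2, 990.6 and 829.6 CPM in the 5 water-morphine libraries, against 943, 1020 and 1178 CPM (lowest, median and highest) in the 6 water-saline libraries. All 5 morphine libraries were under the saline mean, while 2 of them lay within the saline range. Its log2 change was -0.18 ± 0.064 (edgeR adjusted p = 0.0921).

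Shank2, a Shank that joins Homer to the receptor layer as Shank1 and Shank3 do, had 136.7, 153.4, 150.4, 136.8 and 133.5 CPM in water-morphine libraries, against 112.1, 125.9 and 134.9 CPM (lowest, median and highest) in water-saline libraries. All 5 morphine libraries were above the saline mean and 1 of them was inside the saline range. The log2 change was 0.19 ± 0.089 (edgeR adjusted p = 0.211), and a fit on these groups alone gave an adjusted p of 0.0427. Homer1, at 126.9 ± 10.1 CPM with water and morphine and 143.4 ± 28.2 CPM with water and saline (SD, n = 5 and 6), had a log2 change of -0.18 ± 0.1 (edgeR adjusted p = 0.307). Water-saline library 5, with 195.3 CPM of Homer1, set much of that difference, which was -0.068 without it. Called were 0 of 10 scaffold genes against 6.58% of all genes (3.91% higher and 2.67% lower). Before adjustment 2 of 10 had a p under 0.05, Shank2 higher and Dlg4 lower. So did 1721 genes with a rise and 1587 with a fall among all 14564, so that count does not set the scaffold genes apart. The median of the 10 changes was 0.066, against -0.00017 for all genes and 0.040 for the 8668 genes whose transcripts were as long as these, 2608 to 10982 bases.

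How levels followed transcript length shifted with morphine. The longest coding transcripts of the 10 genes ran from 2608 bases for Homer3 to 10982 bases for Homer2, a range that held 8668 genes. Within each library, log2 CPM (less the gene's mean) was regressed on the log2 length of the transcript, and this slope averaged 0.0436 ± 0.0114 with antibiotics and morphine and -0.0177 ± 0.0362 with antibiotics and saline (SD, n = 5 and 6). In water mice it averaged 0.0385 ± 0.00737 with morphine and -0.0507 ± 0.0266 with saline. There the ranges did not overlap, from 0.028 to 0.0467 with morphine and from -0.078 to -0.0112 with saline. With the slope as a covariate the Shank2 change in water mice was -0.21 (edgeR adjusted p = 0.737) and that of Dlg4 -0.17 (adjusted p = 0.782). In water mice that covariate left 0 of all genes called. As the slopes of the groups did not overlap there, these fits cannot tell slope from morphine. The part of the slope in these values was not tested further.

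Antibiotics against water was compared first among morphine mice, where more of the genome differed than in any of the other comparisons. Called were 0 of 10 scaffold genes, where 18.0% of all genes passed (8.42% higher and 9.58% lower). Before adjustment 0 of 10 had a p under 0.05, against 2175 genes with a rise and 2377 with a fall among all 14564. Dlg4, at 836.8 ± 55.9 CPM with antibiotics and 908.8 ± 74.2 CPM with water (SD, n = 5 each), had a log2 change of -0.12 ± 0.067 (edgeR adjusted p = 0.231). Dlgap1, whose protein links Dlg and Shank proteins, had 344.1, 259.7, 199, 277.1 and 205.9 CPM in antibiotic-morphine libraries and 164, 189.7, 356.2, 165.5 and 169.3 CPM in water-morphine libraries. All 5 antibiotic libraries were above 4 of the 5 water libraries, and water-morphine library 4 was above them all. The log2 change was 0.30 ± 0.28 (edgeR adjusted p = 0.508). It was 0.58 without both libraries that stood apart (adjusted p = 0.0256) and 0.58 without water-morphine library 4 alone (adjusted p = 0.131). Homer2 had a log2 change of 0.20 ± 0.34 over all libraries (adjusted p = 0.736) and 0.57 without those 2 (adjusted p = 0.0552). The cortical and septal marker sum ran from 459.176 to 1245.59 CPM in antibiotic-morphine libraries and from 281.135 to 1470.45 CPM in water-morphine libraries. Dlgap1 and Homer2 both followed the score of these markers (mean z-score), as described further on. With that score as a covariate the Dlgap1 change was -0.048 and its adjusted p 0.837, and Shank1 had a change of -0.42 with an adjusted p of 0.0111 (edgeR), against -0.13 ± 0.22 and 0.731 without the covariate.

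Among saline mice, antibiotics against water left the scaffold genes close to their spread. Homer1, the main Homer, had 110.6, 120.4 and 141.8 CPM (lowest, median and highest) in antibiotic-saline libraries, against 123.7, 129.8 and 195.3 CPM in water-saline libraries. The ranges overlapped, and all 6 antibiotic libraries lay below the water mean. The log2 change was -0.23 ± 0.095 (edgeR adjusted p = 0.213), and -0.12 without water-saline library 5, whose Homer1 was the highest of all. Dlg4 averaged 937.7 ± 68.2 CPM with antibiotics and 1030 ± 83.5 CPM with water (SD, n = 6 each), a change of -0.14 ± 0.061 (edgeR adjusted p = 0.255). Called were 0 of 10 scaffold genes, where 1.41% of all genes passed (0.542% higher and 0.865% lower). Before adjustment 2 of 10, Homer1 and Dlg4, both lower, had a p under 0.05. So did 1256 genes with a rise and 1257 with a fall among all 14564. Homer2 had the largest estimate, 0.57 ± 0.32, with libraries at 13.36, 25.7 and 68.08 CPM (lowest, median and highest) with antibiotics and 14.4, 21.34 and 26.19 CPM with water. The estimate was 0.21 without the libraries that stood apart (edgeR adjusted p = 0.614). For Dlgap1 it was 0.33 ± 0.26 over all libraries (adjusted p = 0.54) and 0.048 without those (adjusted p = 0.92).

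The difference between the morphine changes, antibiotic minus water mice, was tested as an interaction. It called 0 of 10 scaffold genes, against 0.467% of all genes (0.220% higher and 0.247% lower). Before adjustment 0 of 10 had a p under 0.05, against 796 genes with a positive and 995 with a negative difference among all 14564. Dlg4, whose 2 morphine changes were -0.16 and -0.18, had a difference of 0.016 ± 0.091 with a 95% interval from -0.17 to 0.20. For Dlg2 and Dlg3 the intervals were -0.18 to 0.15 and -0.22 to 0.11, so a difference beyond these bounds lay outside the interval. For Homer2 it ran from -1.34 to 0.60 and for Dlgap1 from -0.82 to 0.76, which leaves a wide range of differences undetectable. The estimates furthest from 0 were -0.40 ± 0.30 for Shank1 and -0.37 ± 0.46 for Homer2 (edgeR adjusted p = 0.627 and 0.804). Without the libraries that stood apart they were -0.055 and 0.36, so the sign of the Homer2 estimate turned.

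The Shank genes varied inside groups as well as between them. Shank3 averaged 358.1 ± 43.2 CPM with antibiotics and morphine, 390.8 ± 63 with antibiotics and saline, 399.8 ± 51.1 with water and morphine and 447.2 ± 57.2 with water and saline. Its log2 changes were -0.13, -0.16, -0.16 and -0.19 in the 4 pairwise comparisons, with edgeR adjusted p from 0.352 to 0.506. Shank1 averaged 189.4 ± 28.4, 213.6 ± 75.8, 207.5 ± 61.4 and 177.5 ± 29.4 CPM in the same groups, and its SD was largest in the groups that hold the libraries standing apart. The ratio of Shank3 to Shank1 per kilobase ran over 2.57 ± 0.513, 2.73 ± 1.03, 2.76 ± 0.864 and 3.45 ± 0.759, and every group overlapped every other. The ratio of Dlg4 to Dlg3 per kilobase was steadier, at 2.66 ± 0.143, 2.86 ± 0.312, 2.75 ± 0.146 and 3.08 ± 0.236.

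Homer2 and Homer3 are the minor Homers here. Homer2 averaged 32.55 ± 5.78 CPM with antibiotics and morphine, 31.78 ± 19.2 with antibiotics and saline, 28.1 ± 13.9 with water and morphine and 21.38 ± 4.42 with water and saline. In the water-morphine group its libraries had 23.25, 22.22, 52.83, 20.59 and 21.61 CPM, so 1 library lifted the mean above the other 4. The water comparison of morphine with saline gave 0.41 ± 0.33 (edgeR adjusted p = 0.506), and 0.039 without the libraries that stood apart. Homer3 averaged 5.974 ± 0.362, 6.237 ± 0.685, 6.561 ± 0.478 and 6.106 ± 0.58 CPM in the 4 groups, and its pairwise log2 changes lay between -0.14 and 0.11.

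**Figure D2:**
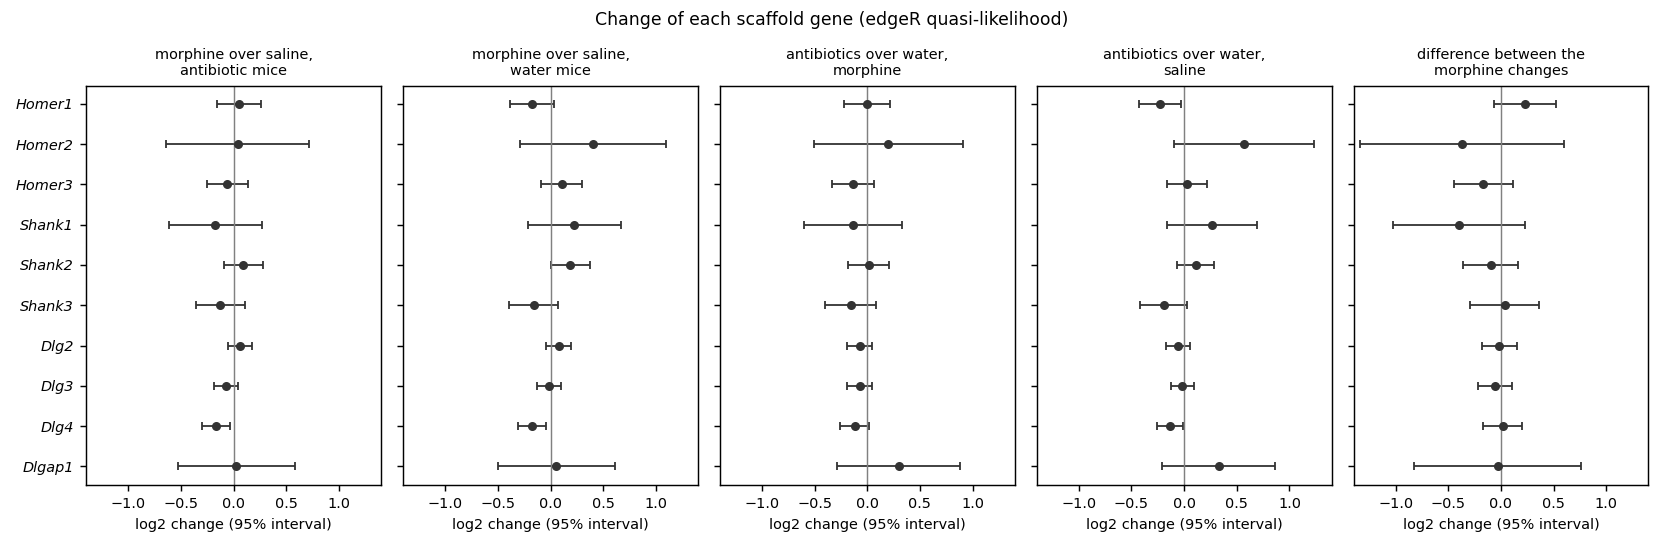
Log2 change (x axis) of each scaffold gene with its 95% interval, in the 5 comparisons (panels). Intervals that leave out 0 belong to Dlg4 in 3 panels, Shank2 in water mice and Homer1 between saline groups, and none of these passed after adjustment over all genes.

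Microglial markers moved with both treatments, and edgeR called 6, 4, 7 and 4 of 8 lower in the 4 pairwise comparisons in the order above. All 8 passed the filter and their sum ran from 331.927 to 387.863 CPM in antibiotic-morphine libraries, 388.028 to 476.147 in antibiotic-saline, 411.846 to 472.671 in water-morphine and 494.258 to 531.239 in water-saline libraries. Inside groups the microglial score had r = 0.529 with Dlg4 and 0.638 with Shank3 (Pearson, 22 libraries). Its part in the Dlg4 values was not tested.

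Projection neuron markers also shifted between groups, though none of the 12 passed in any comparison (edgeR). All 12 had a lower estimate with morphine than with saline in water mice (median log2 change -0.23) and with antibiotics than with water in saline mice (median -0.24). In antibiotic mice given morphine and in the antibiotic comparison under morphine, 7 and 8 of 12 had a lower estimate, with medians of -0.043 and -0.062. With the projection neuron score as a covariate, the Dlg4 change was -0.12 for morphine in water mice (edgeR adjusted p = 0.136), against -0.18 without it. For morphine in antibiotic mice, Dlg4 passed with this covariate (edgeR adjusted p = 0.0245, against 0.0935 without it). Between saline groups Dlg4 was at -0.067 (adjusted p = 0.518), against -0.14 without it, and Homer1 at -0.14 (adjusted p = 0.443), against -0.23. Cortical and septal markers had higher estimates with antibiotics for 12 of 15, both under saline (median log2 change 0.57) and under morphine (0.41). Morphine gave higher estimates for 7 of 15 in antibiotic mice (median -0.0041) and 11 of 15 in water mice (0.11). Of these 15, edgeR called only 1, lower with morphine in water mice. Of 8 oligodendrocyte markers it called 5 lower between saline groups. In the other pairwise comparisons it called 1 or 2 lower and 0 to 2 higher. In bulk tissue, fewer cells of a type and less RNA per cell cannot be told apart.

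Beside the small differences between groups, the scaffold genes varied together inside groups, and they did so in 2 sets. Correlations here are Pearson's r on log2 CPM over 22 libraries with group means taken out. They are descriptions with no test, since the points share libraries and depth and the sets were drawn after seeing the values. Homer2, Shank1, Shank2, Dlg3 and Dlgap1 formed the first set, with r between 0.502 and 0.92 over 10 pairs (median 0.674). Homer1, Shank3, Dlg2 and Dlg4 formed the second, with r between 0.615 and 0.884 over 6 pairs (median 0.728). Between the sets the 20 pairs ran from -0.64, for Homer2 with Shank3, to 0.327, with a median of -0.211. Homer3 followed neither set, with r from -0.479 to 0.176. Homer1 and Homer2 (r = -0.322) and Shank3 and Shank1 (r = -0.452) varied in opposite directions. Among the Dlg genes, Dlg3 had r = 0.327 with Dlg4 and 0.0278 with Dlg2 of the second set.

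The second set was little altered without the 2 libraries that stood apart, with r from 0.647 to 0.921 (median 0.734). The first set then spanned 0.128, for Homer2 with Dlg3, to 0.844, for Shank1 with Shank2 (median 0.607), and the median between the sets was -0.0686. Between the sets r then ran from -0.489 to 0.571. The highest value was Dlg3 with Dlg4, above that of Dlg3 with any gene of its own set (0.128 to 0.55), so the place of Dlg3 in the first set rested on those libraries. Homer2 with Shank3 remained at -0.469, but Shank1 with Shank3 was at -0.188.

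**Figure D3:**
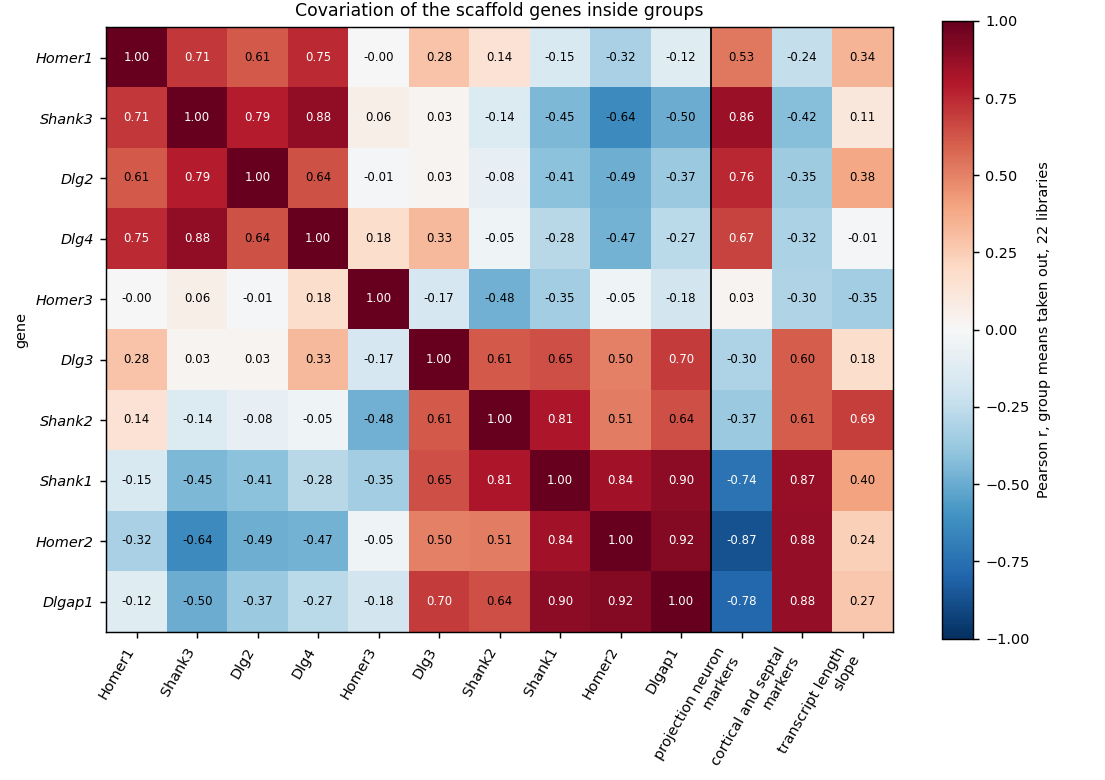
Pearson r (colour and printed value) between the scaffold genes, and between them and 3 library measures right of the line, on log2 CPM with group means taken out, 22 libraries. Homer1, Shank3, Dlg2 and Dlg4 form one block at the upper left, and Dlg3, Shank2, Shank1, Homer2 and Dlgap1 another at the lower right.

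Both sets followed cell type markers. The second followed the markers of striatal projection neurons, such as Ppp1r1b and Drd2. Shank3 had r = 0.863 with that score, Dlg2 0.757, Dlg4 0.673 and Homer1 0.528, and without the libraries that stood apart these were 0.915, 0.845, 0.886 and 0.671. The first set followed the cortical and septal markers, such as Slc17a7 and Tbr1, and also markers of all neurons, such as Snap25 and Syt1. With the cortical and septal score Dlgap1 had r = 0.879, Homer2 0.877, Shank1 0.871, Shank2 0.607 and Dlg3 0.604, and without those libraries 0.796, 0.791, 0.77, 0.58 and 0.486. With the score of all neurons the same genes had r = 0.933, 0.77, 0.863, 0.649 and 0.74, and without those libraries 0.859, 0.465, 0.738, 0.614 and 0.608. Dlgap1, Shank2 and Dlg3 thus followed the score of all neurons more closely than the cortical and septal one. Shank2 also followed the transcript length slope, with r = 0.692, and 0.391 without the 2 libraries with the most extreme slopes. Dlg3 was in between, as its r with the projection neuron score was -0.305 over all libraries and 0.379 without those that stood apart.

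Antibiotic-saline library 5 had the highest Dlgap1 (481.9 CPM), Homer2 (68.08 CPM) and Shank1 (325.6 CPM) of all 22 libraries, while its Shank3, at 307.3 CPM, was the lowest of its group. Its Dlg4 (897.7 CPM) and Homer1 (117.5 CPM) lay inside the range of its group. Water-morphine library 4 had 356.2 CPM of Dlgap1, 52.83 of Homer2 and 310.6 of Shank1, with 349 CPM of Shank3, again the lowest of its group. At the other end, water-saline library 5 had the highest projection neuron score, 1.47, and the highest Shank3 (540.2 CPM), Dlg4 (1178 CPM) and Homer1 (195.3 CPM) of all 22 libraries. Whether the pieces of tissue differed in what they held was not tested.

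**Figure D4:**
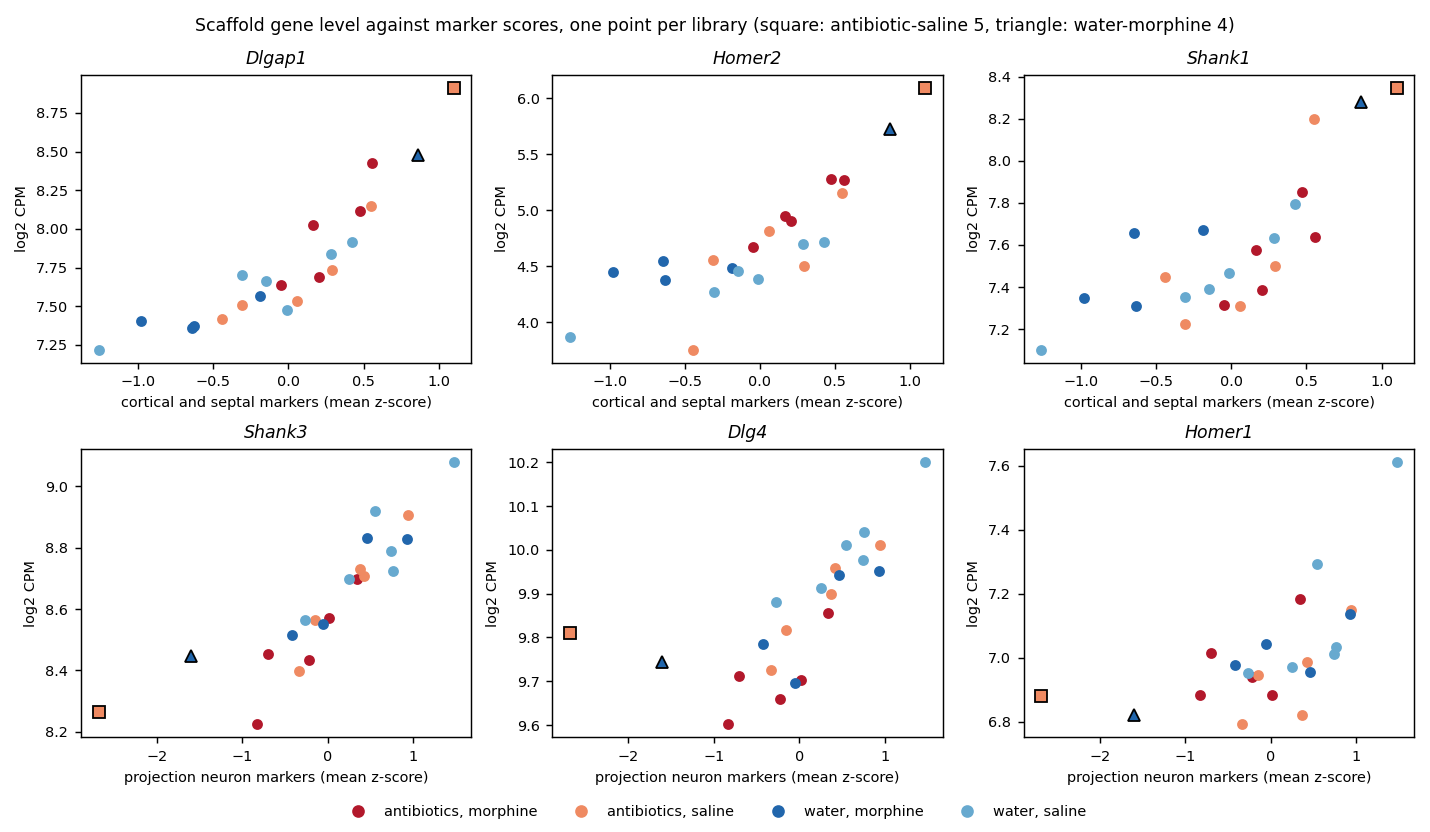
Log2 CPM of 6 scaffold genes (y axes) against the mean z-score of cortical and septal markers (upper row) or projection neuron markers (lower row), 1 point per library, coloured by group. Dlgap1, Homer2 and Shank1 rise with the cortical and septal score, and Shank3, Dlg4 and Homer1 with the projection neuron score, with antibiotic-saline library 5 (square) and water-morphine library 4 (triangle) at the right of the upper row and the left of the lower row.

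The spread inside groups set which scaffold genes could be measured well. Homer2 had a within-group SD of 0.532 on the log2 scale, larger than that of 99.2% of the 2493 genes of like level. Dlgap1, at 0.427, exceeded 98.9% of 958 genes of like level and Shank1, at 0.351, 98.2% of 1085. Without the libraries that stood apart the SDs were 0.339 for Homer2, 0.264 for Dlgap1 and 0.271 for Shank1, still above 98%, 97.4% and 98.4% of those genes. The SDs of Shank3 (0.197), Homer1 (0.173) and Shank2 (0.158) exceeded 88.4%, 88.4% and 85.4% of their peers. Dlg2 (0.092), Dlg3 (0.0919) and Dlg4 (0.108) were near the middle, above 42.4%, 47.2% and 51.3% of theirs. Homer3, though the sparsest, had an SD of 0.123, above only 1% of 1395 genes of like level. Its values stayed between 5.354 and 7.318 CPM over all 22 libraries.

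Genes most like the scaffold genes as a group were ranked by r with the mean z-score of all 10 over 22 libraries. On log2 CPM these included Hivep2 (0.852), Acvr1 (0.815), Cacna1a (0.808), the pore of P/Q-type calcium channels, and Kcnv1 (0.799). With group means taken out, they included St3gal2 (0.894), Osbp2 (0.881), Camkk2 (0.865) and Wasf1 (0.862). The nearest neighbours of single genes, listed after their values were seen, differed by set. Dlgap1 was closest to Enc1 (r = 0.98), Homer2 to Ncald (0.962) and Shank1 to Slc6a17 (0.954). Shank3 was closest to Man2a2 (0.959) and next to Adcy5 (0.952), the adenylyl cyclase of the striatum. Dlg4 was closest to Phyhip (0.963) and next to Ppp1r9b (0.952), which encodes spinophilin, a spine protein. Homer1 was closest to Egr3 (0.885), an activity-induced transcription factor, and next to Bcl11b (0.862), itself among the projection neuron markers. Homer3 was closest to Rsph1 (0.851), Dynlrb2 (0.838) and Mns1 (0.807), genes of cilia. Without the libraries that stood apart, the r of the genes named here ran from 0.751 to 0.966.

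The rest of the postsynaptic density was read from a list of 45 other genes, all of which passed the filter. In antibiotic mice, morphine against saline called 2 higher and 1 lower, where 13.0% of all genes passed. Cnksr2, a scaffold of Ras signalling, averaged 220.1 ± 6.34 CPM with morphine and 176.5 ± 23.5 CPM with saline (log2 change 0.32 ± 0.085, edgeR adjusted p = 0.0164). Rapgef2, an exchange factor for Rap, averaged 241.1 ± 19.9 CPM and 203 ± 10.1 CPM in the same order (0.25 ± 0.062, adjusted p = 0.0114). Cacng3, an auxiliary subunit of AMPA receptors, averaged 75.94 ± 9.26 CPM with morphine and 91.88 ± 10.5 CPM with saline (-0.27 ± 0.082, adjusted p = 0.0304), and lost its call in 7 of 11 leave-one-out fits (adjusted p up to 0.0901). The morphine and saline libraries of Cnksr2 and Rapgef2 did not overlap. All 3 lost their call with the length slope as a covariate, where 139 of all genes were called against 1900 without it. Cacng3 also lost its call in the fit of those groups alone (adjusted p = 0.0655).

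In water mice, morphine against saline called 3 of the 45 higher and 3 lower, where 3.91% of all genes were called higher and 2.67% lower. Grin2a, an NMDA receptor subunit that Dlg proteins hold, averaged 21.9 ± 3.53 CPM with morphine and 12.88 ± 1.81 CPM with saline (log2 change 0.77 ± 0.21, edgeR adjusted p = 0.032). Nos1, the neuronal nitric oxide synthase that binds PSD-95, had a change of 0.41 ± 0.083 (adjusted p = 0.00614), and Tanc2, a scaffold that binds PSD-95, 0.32 ± 0.064 (adjusted p = 0.00577). Lower were Dlgap3, the Dlgap protein typical of the striatum, at 402.7 ± 38.4 CPM with morphine and 510.8 ± 61.5 CPM with saline (-0.34 ± 0.094, adjusted p = 0.0314), Camk2b, a subunit of the kinase CaMKII (-0.23 ± 0.069, adjusted p = 0.0458), and Kcnj4, a potassium channel that binds Dlg proteins (-0.31 ± 0.086, adjusted p = 0.0331). All 6 lost their call with the length slope as a covariate, but that fit called 0 of all genes, so it cannot single them out. Grin2a, Dlgap3, Camk2b and Kcnj4 lost their call in 6 to 8 of 11 leave-one-out fits, with adjusted p up to 0.128. Each of these also lost its call with the replicate number as a block, where 281 of all genes were called. Camk2b and Grin2a lost theirs without a low-count filter, and Kcnj4 in the fit of the compared groups alone. Without the libraries that stood apart Camk2b (adjusted p = 0.07), Dlgap3 (0.0554) and Grin2a (0.0586) lost their call. With the projection neuron score as a covariate, whose 12 markers all had lower estimates here, Camk2b (0.052), Grin2a (0.0502) and Kcnj4 (0.0522) lost theirs. Dlgap3, unlike Dlgap1, followed the projection neuron score (r = 0.55, and 0.861 without the libraries that stood apart).

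Antibiotics against water under morphine called 2 of the 45 higher and 5 lower, where 18.0% of all genes passed. Gria4, an AMPA receptor subunit, averaged 62.11 ± 2.43 CPM with antibiotics and 74.42 ± 9.38 CPM with water (log2 change -0.26 ± 0.064, edgeR adjusted p = 0.00653), and kept its call in all 12 other settings and 10 leave-one-out fits. Cacng3 had a change of -0.29 ± 0.085 (edgeR adjusted p = 0.0227). Gria1, the main AMPA receptor subunit carried to synapses, changed by -0.15 ± 0.053 and Dlg1, the Dlg paralog that binds it, by -0.19 ± 0.066 (adjusted p = 0.0488 and 0.045). Gria1 lost its call in 9 and Dlg1 in 8 of 10 leave-one-out fits, with adjusted p up to 0.131 and 0.121. Cacng3 lost it in 4 of 10 (up to 0.0688). Rapgef2 was higher at 0.23 ± 0.065 (adjusted p = 0.0182) and Kcnj4 at 0.26 ± 0.089 (adjusted p = 0.0436), with the call lost without antibiotic-morphine library 3 for Rapgef2 (0.0684) and in 5 of 10 fits for Kcnj4 (up to 0.127).

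In the remaining comparisons edgeR called 0 of the 45. At an unadjusted p under 0.05 there were 3 higher and 7 lower between saline groups, against 1256 and 1257 of all 14564 genes. For the difference between the morphine changes there were 4 and 4, against 796 and 995 of all genes. DESeq2 and limma-voom kept the direction and the call of all 16 calls in these comparisons. Arc, the activity-induced gene of the list, averaged 172 ± 25.5 CPM with antibiotics and morphine, 136.4 ± 53.7 with antibiotics and saline, 167.3 ± 82.2 with water and morphine and 121 ± 64.6 with water and saline, and passed in no comparison (edgeR adjusted p from 0.52 to 0.963).

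The other genes of the density also differed in how they followed the marker scores. The share of all genes beyond the bounds used below is not given here, so the counts cannot set the density genes apart. Of the 45, 15 had r over 0.5 with the projection neuron score and 6 under -0.5. The highest were Lzts3 (0.946), Baiap2 (0.904) and Sipa1l1 (0.81), scaffold and spine regulators that bind Shank or Dlg proteins, and the lowest was Tanc1 (-0.884). With the cortical and septal score 10 had r over 0.5, led by Ryr2 (0.795) and Iqsec1 (0.792), and 8 had r under -0.5. Without the libraries that stood apart 21 had r over 0.5 with the projection neuron score and 6 with the cortical and septal score. Under -0.5 there were then 2 and 3, in the same order.

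**Figure D5:**
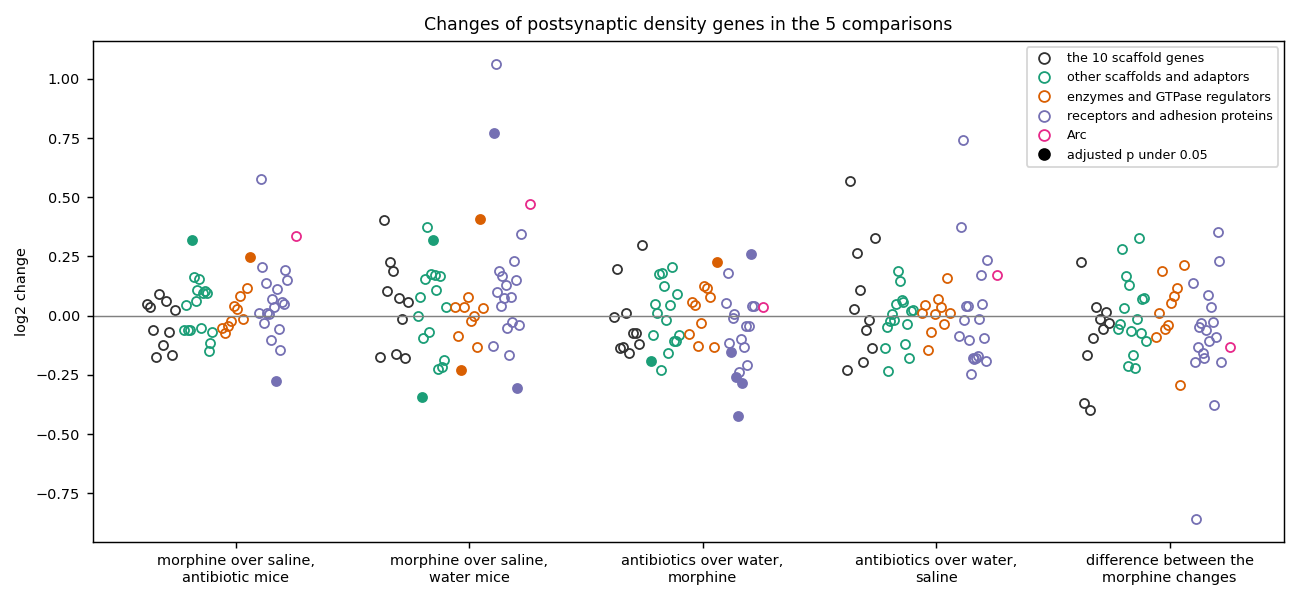
Log2 change (y axis) of the 10 scaffold genes and the 45 other postsynaptic density genes, by role (colour), in the 5 comparisons (x axis); filled points passed an adjusted p of 0.05. None of the scaffold genes is filled, and 3, 6 and 7 of the other genes are in the first 3 comparisons.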

How the data were processed

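RNA was extracted with TRIzol and turned into cDNA with the SMARTer kit, per the labels' protocols. The submitters' processing notes name STAR 2.4.0, FastQC and edgeR. Genome build, annotation and strandedness were not given in the sources used here. The authors deposited raw counts per gene, and the entries that name no gene (20.63% to 26.4% of each library) were taken out before scaling. The authors' normalised table was not used. edgeR 4.0.16 was used under R 4.3.3. Genes were kept with filterByExpr (14564), normalised by TMM, and 1 model of 4 groups was fitted over 22 libraries. Contrasts were tested with the two-sided quasi-likelihood F-test at an adjusted p of 0.05 (Benjamini-Hochberg over all genes kept). SE is the size of a log2 change over the square root of F, and log2 CPM has a prior count of 2. Longest coding transcripts came from GENCODE vM21, matched for 95.4% of the genes kept. No 2 libraries of a group were alike within sampling noise (50 pairs, 3.17 to 23 times the variance expected of a repeat). Alternatives covered scaling, filter, DESeq2 1.42.0, limma 3.58.1 (voom), samples in the fit, replicate number, length slope, marker scores and leaving out libraries. The projection neuron covariate and the joint removal of 2 libraries were chosen after seeing the data. Named were all 10 scaffold genes and, of 45 other density genes, up to 8 that passed per comparison; some genes that met the rules for naming are not reported here. The members and lists were chosen with earlier results of these data known. The pipeline was tested on simulated data.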

Additional observations from a re-analysis of the deposited data

Results flagged for a closer look

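A highest or lowest library that lay far from the rest of its group was found in 4 of 40 combinations of a scaffold gene and a group. Independent combinations would give about 1 in 20 by chance, but these share libraries, and Homer2 and Dlgap1 had r = 0.92. The Dlgap1 and Homer2 cases fell in the libraries that stood apart. Dlgap1 had 481.9 CPM in antibiotic-saline library 5, against 171 to 283.7 CPM in the other libraries of that group. In water-morphine library 4 Dlgap1 had 356.2 CPM, against 164 to 189.7 CPM in the others. Homer2 had 52.83 CPM in the same library 4, against 20.59 to 23.25 CPM in the rest of the water-morphine group. Homer3 had 7.202 CPM in water-saline library 4, against 5.645 to 6.203 CPM in the others, from counts of 57 to 86 per library. In water-saline library 4 the cortical and septal score was the lowest of all 22, at -1.26, and the part of the scores in these values was not tested.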

How the results depend on the processing

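The count of scaffold genes called stayed 0 under RLE and upper-quartile scaling, both other filters, DESeq2, limma-voom and the length slope covariate. It was 1 in water mice given morphine against saline in the fit of those groups alone (Shank2) and with the cortical and septal score as a covariate (Dlg4). It was 1 for morphine against saline in antibiotic mice with the projection neuron score as a covariate (Dlg4, adjusted p = 0.0245) and ran from 0 to 1 over the leave-one-out fits. It was 1 for antibiotics against water under morphine with the cortical and septal score (Shank1) and without the 2 libraries that stood apart (Dlgap1). The cause was not tested. Residuals of 25 same-numbered pairs of libraries had r from -0.478 to 0.353 (median 0.0178), 8 of them over 0.1. Pairs with different numbers were not set beside them, so whether the replicate numbers pair the libraries was not tested. With the replicate number as a block, 0 scaffold genes were called in each comparison, and 7 of the 16 calls of other density genes were lost. The sign of a scaffold gene's change differed from the main value in 16 of 50 cases with the length slope, 10 of 50 with the projection neuron score, 5 of 50 with the cortical and septal score and 55 of 660 leave-one-out values. With the length slope, the changes in water mice given morphine were -0.00081 for Tanc2 and -0.22 for Grin2a, against 0.32 and 0.77. Over all genes, morphine in water mice called 0 with the slope, 281 with the replicate block, 1547 with the cortical and septal score and 509 to 880 leaving out 1 library, against 959. In antibiotic mice it called 139 with the slope, 1187 in the fit of those groups alone and 1084 to 2048 leaving out 1 library, against 1900. Between saline groups 205 passed, 420 with DESeq2, 67 in the fit of those groups alone, 105 with the block, 45 with the slope, 125 with the projection neuron score, 129 without the 2 libraries and 48 to 409 leaving out 1 library. For the difference between the morphine changes 68 passed, 181 with DESeq2, 10 with the block, 135 with the cortical and septal score, 169 with the projection neuron score, 145 without the 2 libraries and 28 to 100 leaving out 1 library. The depth of Homer3, 55 to 99 counts, limits its precision.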
